A study of Gallus gallus with 24 samples.

Results

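Cytochrome b5 type A (CYB5A, listed as CYB5_CHICK), progesterone receptor membrane component 1 (PGRMC1, listed as PGRC1_CHICK) and hydroxysteroid 17-beta dehydrogenase 7 (HSD17B7) are 3 genes of the endoplasmic reticulum, and they were followed here in chicken abdominal fat, 3 of 17934 genes in the deposited table. The genes were selected on measured values. Those values were their FL and LL levels and the way these moved with the stearoyl-CoA desaturase gene (SCD, listed as Q9YGM2_CHICK). Their line differences, and their correlations with SCD and with each other, are therefore given as a description with no test. All 3 were among the 11187 genes that passed the filter on low counts. The samples were abdominal adipose tissue of 8 cockerels at 7 wk of age, 4 from the fat line (FL) and 4 from the lean line (LL), which had been divergently selected on abdominal fat weight for 7 generations and were grown under a standard broiler protocol, with no other treatment given. Each bird had 1 library with 3 sets of counts, called runs 1 to 3 after the technical replicate numbers of the labels. The 3 counts per gene were summed, so that the bird is the replicate (n = 4 per line).

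CYB5A is a small heme protein of the endoplasmic reticulum membrane that passes electrons from NADH, taken up by cytochrome b5 reductases, to enzymes that need them, among them the stearoyl-CoA desaturase, the front-end fatty acid desaturases, sterol enzymes and some cytochromes P450. PGRMC1 is a membrane protein with a cytochrome b5-like heme-binding domain, and is known as a partner of cytochromes P450, including the lanosterol demethylase CYP51A1. HSD17B7 reduces 3-ketosterols on the way to cholesterol and in mammals also converts estrone to estradiol. The liver is the main site of fatty acid synthesis in the chicken, and abdominal fat mostly stores lipid delivered by the blood.

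The bird totals ranged from 4299772 to 10878211 counts in the FL and from 5548867 to 12876999 in the LL. Levels are CPM, counts relative to the library total after TMM scaling, and 3 counts, the limit that a count of 0 allows, equal 0.237 to 0.686 CPM after that scaling, far below each member. FL replicate 4 stood apart: its summed level of 4 matched skeletal muscle markers was 12433 CPM, against 70.5 to 116.3 CPM in the other 7 birds. The tissue label was borne out by the adipocyte markers, of which 7 of 9 were matched by name and summed to between 14352 and 16698 CPM in the FL and between 11926 and 15705 CPM in the LL. Markers of mesothelium (6 of 8 matched) summed to 8.07 to 21.3 CPM in the FL and 10.4 to 90.2 CPM in the LL, and hepatocyte markers (7 of 7 matched) to 2.83 to 7.55 CPM and 6.21 to 251.9 CPM. The FL and LL ranges overlapped for each of these lists, and no matched marker was at 0 in all birds. For mesothelium only LL replicate 1 lay within the FL range. LL replicates 2 to 4, at 90.2, 77.3 and 38.4 CPM, were above every FL bird. The hepatocyte medians were 3.69 CPM in the FL and 59.4 CPM in the LL. Of 7 tested stromal markers 6 had the higher mean in the LL (median log2 fold change -0.24). Of 8 adipocyte features 6 had it in the FL (median 0.22). The part of these markers in the values of the 3 genes was not tested. In tissue RNA, fewer cells of a type and less RNA per cell cannot be told apart.

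CYB5A was higher in abdominal fat of the FL. The gene lies on chromosome 2 from 94287467 to 94299180 of build 2.1, flanks included, and no other gene of the table overlaps it. Its level was 311.4, 287.2, 278.2 and 258.4 CPM in FL replicates 1 to 4. In LL replicates 1 to 4 it was 205.4, 157.9, 154.8 and 190.2 CPM. The lowest FL bird was above the highest LL bird. The mean was 283.8 ± 22.0 CPM in the FL and 177.1 ± 24.8 CPM in the LL (SD, n = 4). The fitted log2 fold change was 0.68 with an SE of 0.12.

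PGRMC1 was the most counted of the 3 genes, although counts are not per length and do not rank genes by transcript number. It lies on chromosome 4 from 16741398 to 16747714, with no overlapping gene. FL replicates 1 to 4 had 1139, 1117, 1297 and 937.1 CPM. LL replicates 1 to 4 had 826.0, 740.6, 769.9 and 744.0 CPM. The lines did not overlap here either, and FL replicate 4, the bird with muscle RNA, was the FL bird nearest to the LL. The mean was 1123 ± 147.5 CPM in the FL and 770.1 ± 39.5 CPM in the LL (SD, n = 4). The fitted log2 fold change was 0.54 with an SE of 0.12. The LL birds lay close together, with a coefficient of variation of 5.13% against 13.1% in the FL.

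HSD17B7 was higher on average in the FL, but the birds of the lines overlapped. It lies on chromosome 8 from 3824082 to 3830125, and its nearest neighbour in the table begins or ends 105 bases away. The FL birds had 251.7, 185.9, 155.6 and 284.3 CPM. The LL birds had 107.9, 126.5, 187.4 and 122.4 CPM. LL replicate 3 exceeded FL replicates 2 and 3, while the other LL birds were below every FL bird. The mean was 219.4 ± 59.0 CPM in the FL and 136.0 ± 35.1 CPM in the LL (SD, n = 4). The fitted log2 fold change was 0.69 with an SE of 0.22.

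SCD, the desaturase that receives electrons from cytochrome b5 and makes monounsaturated fatty acids, varied far more between birds than any member. It was 4638, 4406, 3297 and 7876 CPM in FL replicates 1 to 4 and 530.8, 2598, 5656 and 2673 CPM in LL replicates 1 to 4. The birds overlapped, and the log2 fold change was 0.82 with an SE of 0.53. Within lines the SD on the log2 scale was 1.08 for SCD, 0.16 for CYB5A, 0.15 for PGRMC1 and 0.37 for HSD17B7.

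**Figure D1:**
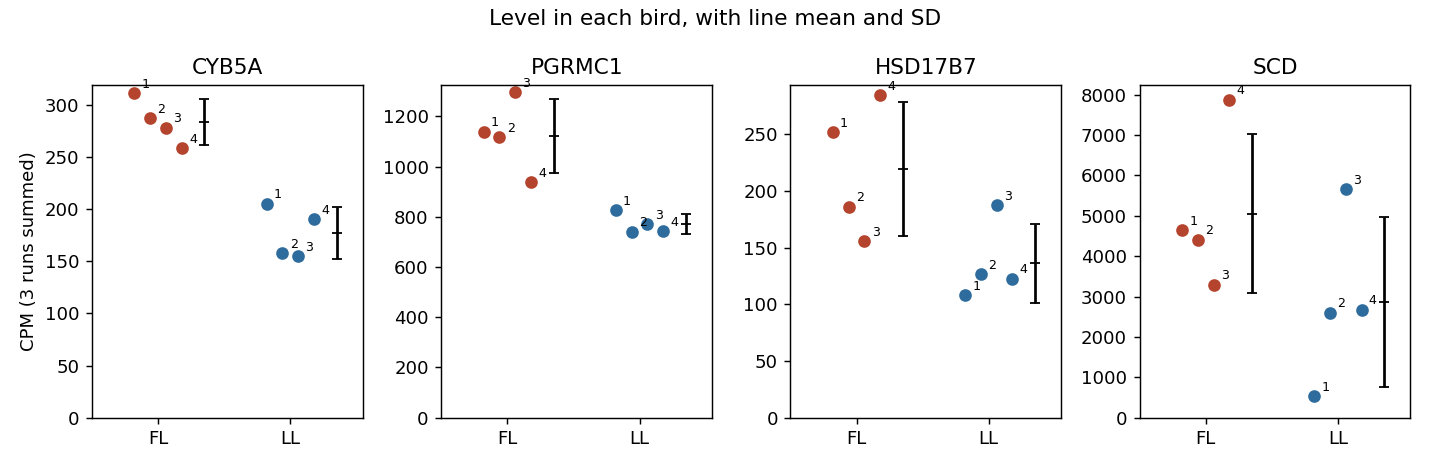
Level in CPM (y axis) of CYB5A, PGRMC1, HSD17B7 and SCD in each FL (red) and LL (blue) bird, numbered by replicate, with black bars for the line mean ± SD (n = 4). The FL and LL birds are separate for CYB5A and PGRMC1 and overlap for HSD17B7 and SCD.

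In the fit across all genes, a DE gene had an adjusted p at or under 0.05 in the quasi-likelihood test of edgeR and a fold change of at least 1.2, and 0.366% of 11187 genes met both. CYB5A was 1 of them, and PGRMC1 and HSD17B7 were not. Since the 3 genes were chosen with this contrast known, the count is no test of them and nothing is read from it. The CYB5A count was not stable either: it was lost with total counts as the scaling, with no filter, from run 1 alone, without both FL replicate 4 and LL replicate 3, and in 6 of the 8 fits that left out 1 bird, all but those without FL replicate 4 or LL replicate 1. By DESeq2 (background 2.86%) and from runs 2 and 3 alone (background 1.26%) the count was 2, CYB5A and PGRMC1, and nothing is read from these counts either. Over the 8 fits that left out 1 bird the CYB5A log2 fold change stayed between 0.62 and 0.76. CYB5A and PGRMC1, 2 of the 3 genes, had no overlap between lines with the FL higher, where the background was 3.76%. The genes were chosen on these levels, so nothing is read from that count either.

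The other genes of the cytochrome b5 chain gave no DE gene by edgeR, where the background was 0.366%, so nothing is read from that count. The same holds for the low counts of DE genes in the lists below. Of 13 genes listed, 8 were matched by name and all 8 were tested, and CYB5B, CYB5R1, CYB5RL, CYB5D1 and PGRMC2 were not analysed here. Without CYB5A and PGRMC1, 4 of 6 had the higher mean in the FL, with a median log2 fold change of 0.15 against 0.00 over all genes tested. By unadjusted p under 0.05 there was 1 of 6 (background 13.1%), and 0 were DE genes by DESeq2 (background 2.86%). That 1 was CYB5R4, a soluble fusion of a cytochrome b5 with its reductase, at 19.2 ± 1.77 CPM in the FL and 14.6 ± 2.06 CPM in the LL (SD, n = 4; edgeR adjusted p = 0.264). CYB5R3, the main reductase that feeds CYB5A, differed by a log2 fold change of 0.11 with an SE of 0.11. POR, the flavoprotein that gives electrons from NADPH to cytochromes P450, ranged from 749.6 to 1040 CPM in the FL and from 507.6 to 1222 CPM in the LL, so the LL range held the FL range. CYB5R2, another reductase, was the 1 of 6 with no overlap between lines and the FL higher (background 3.76%). Its lowest FL bird was at 11.56 CPM and its highest LL bird at 11.38 CPM, so the gap was small. The log2 fold change was 0.26 with an SE of 0.14 (edgeR adjusted p = 0.462). NENF, a secreted relative of PGRMC1, had 38.5 ± 8.38 CPM in the FL and 33.5 ± 7.38 CPM in the LL (SD, n = 4).

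Among the desaturases and elongases, which use the cytochrome b5 chain or work beside it, 11 of 18 matched genes were tested. Of the 11, 0 were DE genes by edgeR (background 0.366%) or DESeq2 (background 2.86%). Their median log2 fold change was 0.17, and 2 of 11 had an unadjusted p under 0.05, both higher in the FL, where 13.1% of all genes tested had such a p in either direction. FADS2, the first desaturase of polyunsaturated fatty acid synthesis, had 433.6, 273.5, 242.1 and 461.4 CPM in the FL and 186.6, 169.2, 256.5 and 243.6 CPM in the LL. The lines overlapped through FL replicate 3 and LL replicates 3 and 4, and the edgeR adjusted p was 0.194. HSD17B12, the ketoacyl reductase of fatty acid elongation, had a log2 fold change of 0.50 with an SE of 0.18 (edgeR adjusted p = 0.264). FADS1, the second desaturase of that pathway, was near equal, at 69.2 ± 11.4 CPM in the FL and 70.5 ± 14.7 CPM in the LL (SD, n = 4), and ELOVL6, which elongates palmitate, had a log2 fold change of -0.15 with an SE of 0.17. The elongase genes ELOVL1 and ELOVL5 had log2 fold changes of 0.21 and 0.22, each with an SE of 0.14 (edgeR adjusted p = 0.557 for both).

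Of the 22 genes listed for cholesterol synthesis 16 were matched and tested. Without HSD17B7, 14 of 15 had the higher mean in the FL, with a median log2 fold change of 0.32 against 0.00 over all genes tested. MSMO1, NSDHL and CYP51A1 were all highest in the same 2 birds, FL replicate 1 and LL replicate 1. The 15 genes are thus not independent, and nothing is read from the 14. None was a DE gene by edgeR (background 0.366%), 1 was by DESeq2 (background 2.86%), and 2 of 15 had an unadjusted p under 0.05 (background 13.1%). ACAT2, which joins acetyl-CoA units at the start of the pathway, had a log2 fold change of 0.41 with an SE of 0.16 (edgeR adjusted p = 0.294), and MVD, which makes isopentenyl diphosphate, one of 0.56 with an SE of 0.30 (edgeR adjusted p = 0.464).

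The order of birds differed between HSD17B7 and the neighbouring steps of its pathway. MSMO1 and NSDHL act just before HSD17B7 in the removal of the sterol methyl groups. LL replicate 1 had the lowest HSD17B7 of all birds (107.9 CPM), while its NSDHL, at 21.4 CPM, was the highest of all birds and its MSMO1, at 194.3 CPM, was exceeded only by FL replicate 1 at 225.7 CPM. CYP51A1, the demethylase that PGRMC1 is known to bind, was likewise highest in FL replicate 1 (207.5 CPM) and second in LL replicate 1 (143.9 CPM). The log2 fold changes of these genes between lines were 0.30 with an SE of 0.31 for MSMO1, 0.04 with an SE of 0.44 for NSDHL and 0.38 with an SE of 0.29 for CYP51A1.

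**Figure D2:**
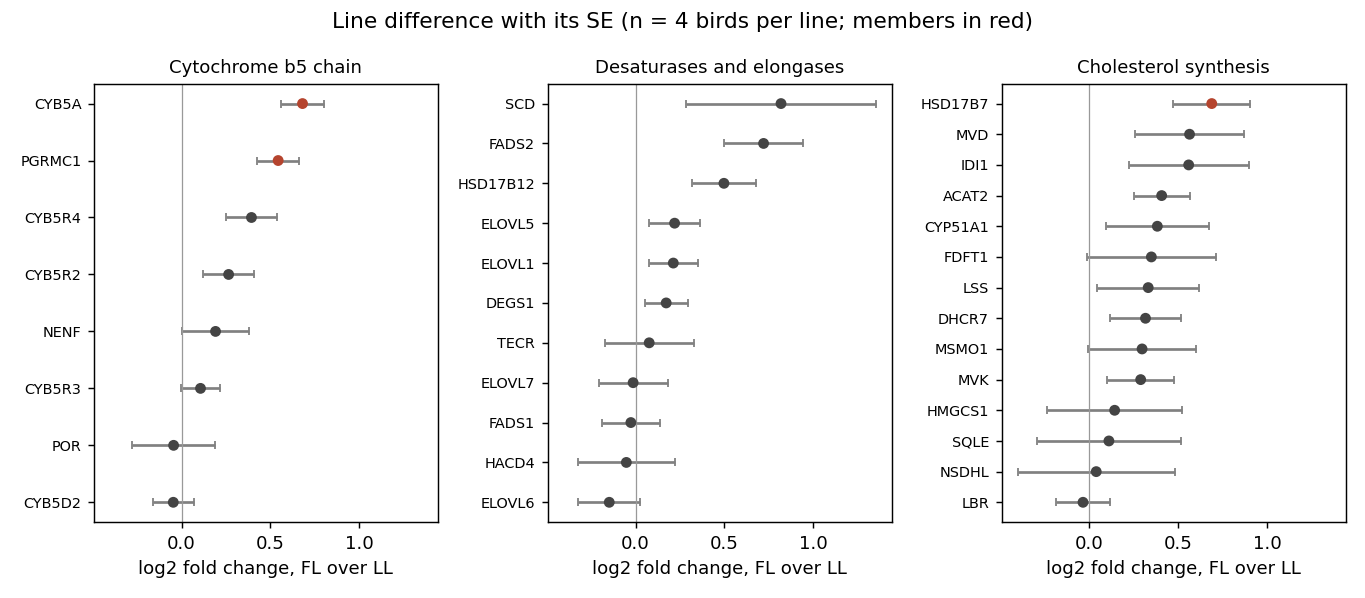
Log2 fold change, FL over LL (x axis), with its SE for tested genes of the cytochrome b5 chain, the desaturases and elongases, and cholesterol synthesis, as far as reported here (n = 4 birds per line), with the 3 selected genes in red. CYB5A, PGRMC1 and HSD17B7 lie between 0.54 and 0.69, and most cholesterol genes lie above 0 with SEs that are large for their size.

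Genes that sense and move sterols showed no common direction, with 7 of 15 tested genes higher and 8 lower in mean in the FL and a median log2 fold change of -0.01. None was a DE gene by edgeR (background 0.366%) or DESeq2 (background 2.86%), and 1 of 15, INSIG2, had an unadjusted p under 0.05 (background 13.1%). INSIG2 retains the sterol sensor in the endoplasmic reticulum, and had a log2 fold change of 0.38 with an SE of 0.14 (edgeR adjusted p = 0.276). SREBF2, the transcription factor of cholesterol synthesis, had a log2 fold change of 0.18 with an SE of 0.16, and INSIG1 one of -0.22 with an SE of 0.23. The cholesterol exporter gene ABCA1, the cholesterol esterifying enzyme gene SOAT1 and the lysosomal cholesterol transporter gene NPC1 had log2 fold changes of -0.31, -0.24 and 0.20, with edgeR adjusted p-values of 0.383, 0.392 and 0.44.

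Steroid enzymes and receptors, the other setting in which HSD17B7 is known, also held no DE gene by edgeR (background 0.366%) or DESeq2 (background 2.86%) among the 19 tested beside it. Of the 19, 4 had an unadjusted p under 0.05 (FL higher for 1, LL higher for 3, background 13.1% in either direction). The progesterone receptor gene PGR was low and had the larger mean in the LL, at 4.90 ± 2.06 CPM in the FL and 9.24 ± 3.56 CPM in the LL (SD, n = 4; edgeR adjusted p = 0.283). The glucocorticoid receptor gene NR3C1 also had the larger mean in the LL, with a log2 fold change of -0.20 and an SE of 0.09 (edgeR adjusted p = 0.368). HSD17B4, a peroxisomal relative of HSD17B7 that acts in fatty acid oxidation, was at 299.9 ± 25.7 CPM in the FL and 280.5 ± 29.4 CPM in the LL (SD, n = 4). CYP19A1, the aromatase gene, had 0 CPM in all 8 birds. Of the 17 features tested in the list of cytochromes P450, 0 were DE genes by edgeR (background 0.366%) and 1 was by DESeq2 (background 2.86%). An unadjusted p under 0.05 was found for 3 (FL higher for 1, LL higher for 2, background 13.1%). Among the 3 was CYP46A1, which hydroxylates cholesterol, at 31.2 ± 1.35 CPM in the FL and 23.8 ± 2.39 CPM in the LL (SD, n = 4; edgeR adjusted p = 0.164). CYP1B1 had a log2 fold change of -0.65 with an SE of 0.30 (edgeR adjusted p = 0.392).

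Variation between birds of the same line was then compared with that of SCD. Each bird was taken as its deviation from its line mean of log2(CPM + 0.5), so that the line difference does not enter. The genes were chosen partly for how they moved with SCD, so these correlations over 8 birds carry no p. For HSD17B7 and SCD the Pearson r was 0.74 and the Spearman rho 0.88. For CYB5A r was -0.76 and rho -0.67, and for PGRMC1 r was -0.57 and rho -0.79. LL replicate 1 and FL replicate 4 were the birds farthest from the median of SCD. Without both, r was 0.88 for HSD17B7, but -0.31 for CYB5A and -0.13 for PGRMC1. Without FL replicate 4 alone, r was -0.73 for CYB5A and -0.56 for PGRMC1. Without LL replicate 1 alone, it was -0.53 and -0.61. The latter relations were thus weaker without both birds than without either alone. Over all 8 birds, with no centring, HSD17B7 and SCD had an r of 0.82 and a rho of 0.95, which is a description over birds that share a line.

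Among the members themselves, CYB5A and PGRMC1 had a within-line r of 0.41 and a rho of 0.52. HSD17B7 had an r of -0.48 and a rho of -0.52 with CYB5A, and an r of -0.67 and a rho of -0.67 with PGRMC1. The choice of the members on their levels and on how they moved with SCD bears on these correlations too, so they carry no p either. Without the 2 birds farthest from the median of the second gene of each pair, r was 0.57, -0.06 and -0.31. The order of birds within lines differed between members. FL replicate 3, for example, had the highest PGRMC1 and the lowest HSD17B7 of its line, and LL replicate 3 had the highest HSD17B7 and the lowest CYB5A of its line.

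These relations were compared between runs of the same libraries, as numbered in the labels. Run 1 had 4 libraries per lane, except for FL replicate 4 and LL replicate 3, which had been sequenced alone (1 library per lane). Runs 2 and 3 had 8 libraries per lane, according to the sequencing summary of the study. The study describes the lanes of 8 libraries as replicate lanes of 1 sequencing run. FL replicate 4 and LL replicate 3 were sequenced alone in another sequencing run after low quality scores, and the authors left out their first data. Run 1 thus differed from runs 2 and 3 in sequencing run as well as in libraries per lane. Runs 2 and 3 of a bird differed by at most 7.57% for CYB5A, 6.44% for PGRMC1, 11.3% for HSD17B7 and 2.65% for SCD. Run 1 differed more. In each of the 6 birds with 4 libraries per lane, PGRMC1 was higher in run 1 than in runs 2 and 3, by 0.19 to 0.32 on the log2 scale, and CYB5A was higher by 0.05 to 0.12. In the same 6 birds HSD17B7 was lower in run 1, with log2 ratios of -0.40 to -0.12, and so was SCD, with log2 ratios of -0.38 to -0.20. In FL replicate 4 and LL replicate 3 the log2 ratios were -0.03 and -0.05 for PGRMC1, 0.12 and 0.05 for HSD17B7, and 0.24 and 0.09 for SCD. Shifts of one sign in all 6 birds were common, with 21.1% of genes higher and 21.3% lower in run 1, so they are not particular to the 3 genes.

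**Figure D3:**
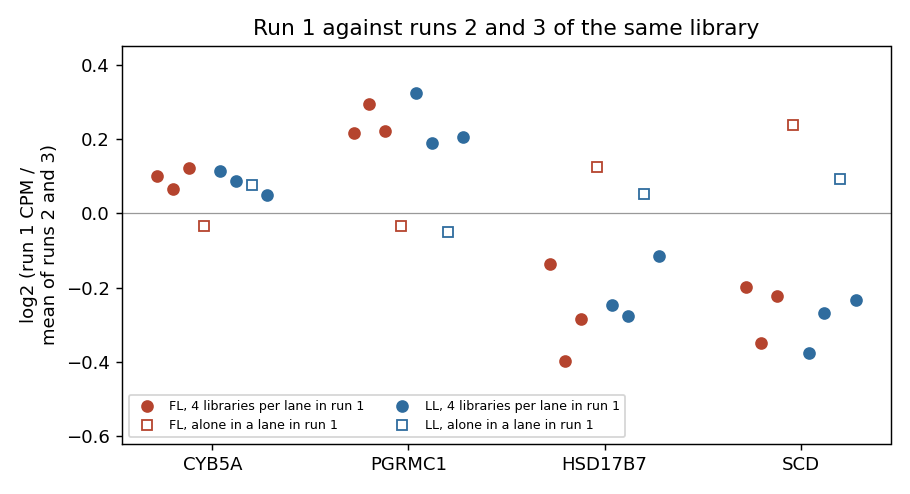
Log2 ratio of run 1 to the mean of runs 2 and 3 (y axis) for each bird and gene, with FL in red and LL in blue; open squares are FL replicate 4 and LL replicate 3, sequenced alone in run 1. The 6 other birds lie above 0 for CYB5A and PGRMC1 and below 0 for HSD17B7 and SCD, and the open squares lie on the other side or near 0 for all but CYB5A.

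FL replicate 4 and LL replicate 3 were also the birds with the highest SCD of their lines. This held from runs 2 and 3 alone too, at 7129 and 5387 CPM. The same 2 birds stood out in other markers: FL replicate 4 in muscle markers (12433 CPM) and LL replicate 3 in hepatocyte markers (251.9 CPM, the highest of all birds). Lane scheme, these markers and SCD level went together across birds in the summed counts, so their parts in r cannot be told apart there. Runs 2 and 3 share a lane scheme but come from the same libraries, so the marker differences remain in them. From runs 2 and 3 alone, in which all birds had the same scheme, the within-line r with SCD was 0.68 for HSD17B7, -0.68 for CYB5A and 0.00 for PGRMC1. From run 1 alone r was 0.75, -0.80 and -0.70. Over both lines the negative r of PGRMC1 with SCD was seen from run 1 and not from runs 2 and 3. That difference was not itself tested, and the r of 0.00 joined unlike patterns in the FL and LL. From runs 2 and 3, FL replicate 3 had the lowest SCD and the highest PGRMC1 of its line (deviations of -0.50 and 0.19). FL replicate 4 had the highest SCD and the lowest PGRMC1 (0.53 and -0.14). LL replicate 3 had the highest of both in its line (1.25 and 0.12). Without FL replicate 4 and LL replicate 3, r in the summed counts was 0.47, -0.58 and -0.74 over 6 birds. These 6 birds shared 1 scheme in each run. Their summed counts include run 1, in which PGRMC1 was higher and SCD lower than in runs 2 and 3 in each of them. The part of the scheme in r was not tested. The line difference did not move in this way: from runs 2 and 3 the log2 fold changes were 0.70 for CYB5A, 0.55 for PGRMC1 and 0.69 for HSD17B7, and from run 1 they were 0.68, 0.56 and 0.67.

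**Figure D4:**
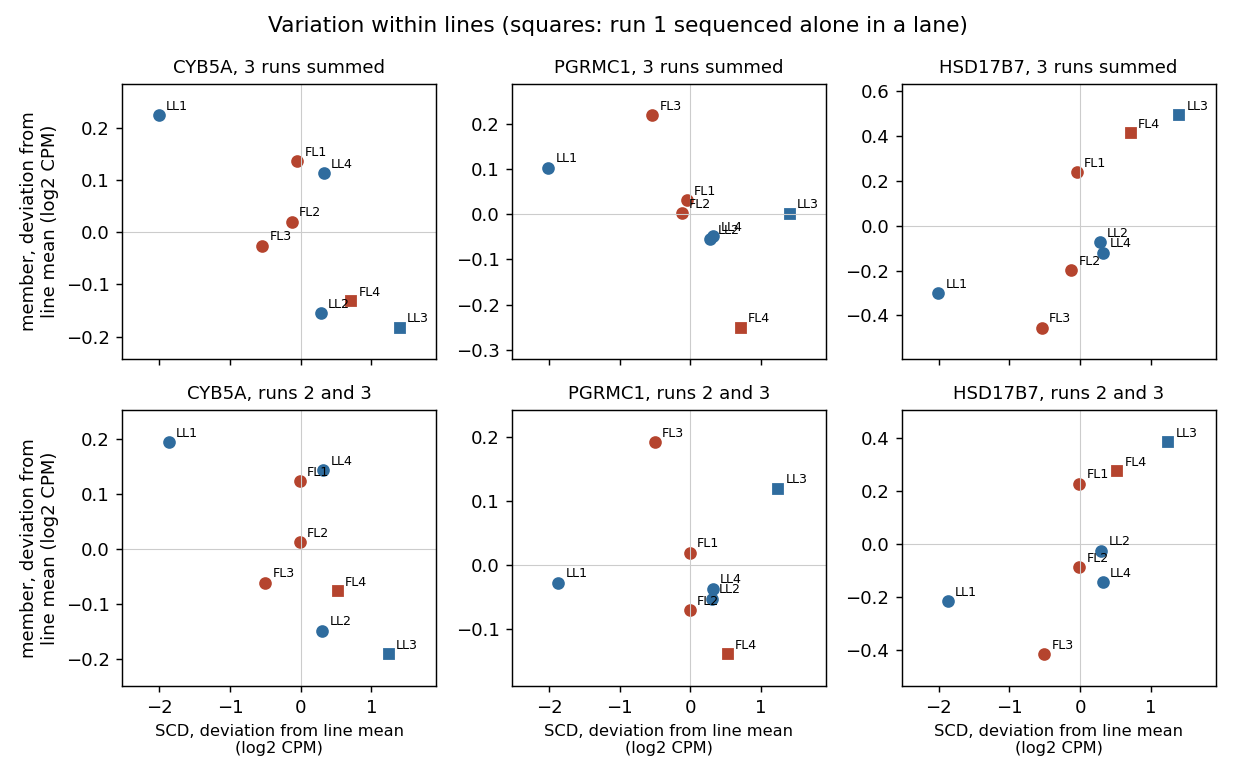
Deviation of CYB5A, PGRMC1 and HSD17B7 (y axis) and of SCD (x axis) from the line mean of log2 CPM in each bird, from the 3 runs summed (top) and from runs 2 and 3 (bottom), with FL in red, LL in blue and squares for FL replicate 4 and LL replicate 3. HSD17B7 has a positive r in both rows (0.74 and 0.68), and PGRMC1 has an r of -0.57 in the top row and 0.00 in the bottom row.

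The genes whose levels over the 8 birds were most like each member were taken from the 8041 tested genes with a mean of at least 10 CPM, as a description. Since these genes were picked for the highest r among many over few birds, their r values are high by choice and carry no test. For CYB5A they included TMEM123 (r = 0.98), CCT2, KPNA4 and a feature known only as Q5H7M6_CHICK, with within-line r between 0.85 and 0.95. For PGRMC1 they were SBDS (r = 0.98), PTGR1, a feature with no name, CAPN2 and NIPA1, with within-line r between 0.80 and 0.96. For HSD17B7 they included RCJMB04_22n8 (r = 0.98), USP5, COPS5 and G3BP2, with within-line r between 0.91 and 0.97. None of the 5 nearest to each member was a DE gene by edgeR (background 0.366%), and nothing is read from that count. SCD was not among the 5 nearest to any member.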

How the data were processed

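The authors trimmed paired-end reads (base calling with CASAVA 1.8.2, per the labels), mapped them to chicken genome build 2.1 in CLC Genomics Workbench 5.1 with flanks added to each gene, and deposited unscaled counts of unique exon reads per gene and run (24 columns). The 26 normalized columns and the 3 columns of the authors' fold change, p-value and FDR were not used. Here counts were added over the 3 runs of each library. Genes were filtered with filterByExpr, TMM scaled and tested with edgeR 4.0.16 (glmQLFit, glmQLFTest) (R 4.3.3). P-values were Benjamini-Hochberg adjusted for 11187 genes, and the test was run on simulated data first. Thresholds for DE genes were 0.05 (adjusted p) and 1.2 (fold). DESeq2 1.42.0 was an alternative, with other scaling, filters and runs, and with each bird left out. Correlations between members and with SCD are given without a p, since the members were chosen on their levels and on how these moved with SCD.

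The members and gene lists were chosen with earlier results of these data known. Named genes were the members, SCD, fixed partners, DE genes, the 4 of smallest unadjusted p in each list, and the 5 most alike genes per member. Genes were named from the deposited identifiers, the study's gene tables and a list of UniProt entry names. Limits from counts cover counting error only, since reads carry no molecular identifiers. Labels and methods of the study differ on RNA extraction and kit, and the lane scheme per run was taken from the study. Sequences were not used here, and some genes of the lists are counted but not reported here by name.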

Additional observations from a re-analysis of the deposited data

How the results depend on the processing

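Under every alternative run, the log2 fold changes of CYB5A, PGRMC1 and HSD17B7 kept their direction and moved by less than the within-line SD. Leaving out 1 bird at a time gave 0.62 to 0.76 for CYB5A, 0.47 to 0.62 for PGRMC1 and 0.54 to 0.89 for HSD17B7. Counts of DE genes depended on the setting. Of all genes 41 were DE genes, against 319 by DESeq2, 27 with no filter, 133 from runs 2 and 3, 1 from run 1, 1327 with the 24 runs as replicates, 19 without FL replicate 4 and LL replicate 3 (chosen after seeing the data), and 2 to 65 with 1 bird left out. With total counts as the scaling 20 DE genes favoured the FL and 26 the LL, against 23 and 18 with TMM, and the median of all genes was -0.06. In the cytochrome b5 chain the count of 1 became 2 by DESeq2 and from runs 2 and 3, 3 with 24 runs, 0 with total counts, with no filter, from run 1 and without FL replicate 4 and LL replicate 3, and 0 to 2 with 1 bird left out. With 24 runs as replicates, which treats runs of 1 library as independent, the counts of 0 became 2 for desaturases and elongases, 4 for cholesterol synthesis, 2 for sterol control, 6 for steroid genes and 1 for cytochromes P450. DESeq2 gave 1 for cholesterol synthesis and 1 for cytochromes P450, and the latter count was 0 to 1 with 1 bird left out. The correlation of PGRMC1 with SCD turned from -0.57 to 0.0038 from runs 2 and 3 and was -0.70 from run 1, and that of HSD17B7 was 0.75 from run 1. The cause of these changes was not tested.

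Bird numbers were shared by the lines, but the labels name no pairing of birds. The deviations of same-numbered birds correlated at 0.22, -0.07, -0.11 and -0.06. With no differently numbered birds compared, these values cannot decide whether birds were paired. With the replicate block, 8 genes were DE genes, 0 of them in the cytochrome b5 chain, and the log2 fold changes were 0.69, 0.54 and 0.69 for CYB5A, PGRMC1 and HSD17B7. The block changed the call of CYB5A and of no other member. Each member had at least 714 counts in each bird. The part of depth in the calls was not tested.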
